A study of Mus musculus with 6 samples.

Results

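The 35 genes described here are targets or regulators of the sterol regulatory element-binding proteins (SREBPs) that make fatty acids, glycerides and cholesterol, and their transcripts were compared in pancreatic islets of 2 obese mouse strains. They were found by gene name among the non-control probes of the arrays, with Msmo1 under its older name Sc4mol. All 35 were measured, out of 16417 genes tested, and 68 of their 73 probes were kept. They fall into 17 genes of fatty acid and glyceride synthesis, 15 of cholesterol synthesis and transport, and 3 regulators.

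The first strain, NZO/HiBomDife (New Zealand Obese, called NZO below), carries the label diabetes-prone. The other, C57BL/6.V-Lepob/ob (called B6-ob/ob below), has no working leptin and carries the label diabetes-resistant. All mice were male, had eaten a fatty diet free of carbohydrate until 18 weeks of age, and gave islets 48 h after carbohydrate was put back into the diet. Islets taken before the switch were not analysed here, so a difference between strains cannot be told apart from a difference in response to carbohydrate. There are 3 NZO arrays, numbered 10, 11 and 12, and 3 B6-ob/ob arrays, numbered 4, 5 and 6. Whether a sample was 1 animal or a pool is not stated, so p-values reflect only the spread among the samples at hand, part or all of which could be technical.

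SREBPs are made as precursors in the membrane of the endoplasmic reticulum, where Scap and the Insig proteins hold them while sterols are plentiful. When sterols fall, Scap carries them to the Golgi, the proteases Mbtps1 and Mbtps2 cut them, and the freed part enters the nucleus and binds sterol regulatory elements. In liver, SREBP-1c, a product of Srebf1, mainly drives fatty acid synthesis under insulin, and SREBP-2, the product of Srebf2, mainly drives cholesterol synthesis. In islets fatty acid synthesis turns glucose carbon into lipid, and several of its genes also answer to the glucose-sensing factor encoded by Mlxipl.

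The promoters of 4 of these genes are shown: Pnpla3 differed most between the strains, Fasn overlapped, and Hmgcs1 and Insig1 hold the letters SREBPs are known to bind. Each is the 250 bases before the transcription start, 5′ to 3′ on the gene's strand, from the RefSeq promoter table on GRCm38.p6. Capitals mark the sterol regulatory element core TCACNCCAC, the E-box CACGTG, which SREBPs can also bind, and the NF-Y box CCAAT or its reverse complement ATTGG.
Pnpla3, chr15:84167566-84167815, plus strand: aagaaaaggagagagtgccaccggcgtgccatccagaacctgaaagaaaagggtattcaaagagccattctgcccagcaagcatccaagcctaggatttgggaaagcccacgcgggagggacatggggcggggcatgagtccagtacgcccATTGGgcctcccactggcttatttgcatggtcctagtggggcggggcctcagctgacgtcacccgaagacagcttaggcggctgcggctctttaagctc
Fasn, chr11:120824548-120824797, minus strand: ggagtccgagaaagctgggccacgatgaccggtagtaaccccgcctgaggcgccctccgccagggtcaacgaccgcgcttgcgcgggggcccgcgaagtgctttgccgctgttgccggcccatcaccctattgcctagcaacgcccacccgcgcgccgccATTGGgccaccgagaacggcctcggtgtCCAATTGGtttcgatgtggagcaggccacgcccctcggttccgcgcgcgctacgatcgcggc
Hmgcs1, chr13:119690101-119690350, plus strand: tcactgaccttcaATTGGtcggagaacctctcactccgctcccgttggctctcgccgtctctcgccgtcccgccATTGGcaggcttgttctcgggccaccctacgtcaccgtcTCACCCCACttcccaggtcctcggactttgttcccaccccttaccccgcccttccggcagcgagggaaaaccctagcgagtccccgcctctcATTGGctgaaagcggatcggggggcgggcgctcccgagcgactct
Insig1, chr5:28071162-28071411, plus strand: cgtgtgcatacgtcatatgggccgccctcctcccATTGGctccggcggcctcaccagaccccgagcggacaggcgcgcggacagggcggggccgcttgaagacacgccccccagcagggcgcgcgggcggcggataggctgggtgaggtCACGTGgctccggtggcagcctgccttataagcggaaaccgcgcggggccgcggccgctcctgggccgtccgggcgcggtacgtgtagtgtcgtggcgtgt
Hmgcs1 holds the element core 137 bases before its start, with NF-Y boxes 237, 176 and 45 bases before it. Insig1 holds the E-box 101 bases before its start and an NF-Y box 216 bases before it. Pnpla3 holds an NF-Y box 99 bases before its start, and Fasn holds 3, beginning 90, 62 and 59 bases before it, of which the last 2 overlap. The printed Pnpla3 and Fasn stretches do not hold the element core in these letters.

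Promoter windows of 300 bases, which add the 50 bases after the start, were present for 26 of the 35 genes, in 33 windows. Both strands were searched. The element core was in 1 of the 33 windows (Hmgcs1), against 1.24% of all 32851 windows of the table. CACGTG was in 4 of 33 (12.1%), against 7.15% of all windows. CCAAT was in 22 of 33 (66.7%), against 37.4% of all windows, and the GC box GGGCGG, bound by Sp1, was in 21 of 33 (63.6%), against 35.7%. By branch, CCAAT was in 7 of 14 fatty acid windows (50%) and in 11 of 14 cholesterol windows (78.6%). Windows of 1 gene can overlap, and a match describes letters, not binding.

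Levels are log2 intensities relative to the 75th percentile of the probes of the same array, so that 0 is the level of that percentile. Levels of different probes are not compared, since probes differ in how well they bind. Differences are NZO minus B6-ob/ob, with their standard error (SE) or 95% confidence interval, from limma's moderated test. A gene is called where its p-value, adjusted with Benjamini-Hochberg over all 16417 genes, is under 0.05. Each gene is represented by its brightest kept probe. Between 23621 and 24710 of 41174 probes per array were well above background and no spot was saturated.

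Insulin transcripts were high in both strains, and Ins2 was at 10.16, 10.42 and 10.17 in NZO and at 10.52, 10.06 and 10 in B6-ob/ob. Of the 9 beta cell markers measured 1 was called, Nkx6-1, which was lower in NZO (-0.81), where 9% of all genes were called lower. Of the 4 alpha cell markers 0 were called, where 22.2% of all genes were called in either direction. Of markers of other cells, 7 of 7 acinar, 4 of 7 ductal, 7 of 7 stromal, 3 of 5 macrophage and 2 of 5 endothelial markers were called higher in NZO, where 13.2% of all genes were. Of these, Cftr and Muc1 (ductal) and Pdgfra (stromal) were well above background on no B6-ob/ob array, and Ptf1a (acinar) on 1, so they were measured through NZO, where they are high. The summed linear level, in units of the array's 75th percentile, was 770 to 1180 in NZO and 111 to 377 in B6-ob/ob for acinar markers. It was 161 to 232 in NZO and 86.7 to 261 in B6-ob/ob for ductal markers, and 50 to 59.3 in NZO and 5.43 to 15 in B6-ob/ob for stromal markers. For macrophage markers it was 13.3 to 26.8 in NZO and 5.91 to 6.73 in B6-ob/ob, and for endothelial markers 11.6 to 14 in NZO and 8.63 to 9.57 in B6-ob/ob.

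Of 9 adipocyte markers, a cell type rich in lipid synthesis, 8 were named on the array. Adipoq, Retn and Adrb3 were well above background on 0 of 6 arrays, and Cfd on 1 NZO array. Fabp4, Pparg, Lipe and Cidec were measured, and Cidec alone was called higher (1.35, limma adjusted p = 0.0381). It was well above background on all 3 NZO arrays and on 1 B6-ob/ob array, so it was kept through the strain in which it is high. Their summed level was 18.5 to 19.1 in NZO and 9.46 to 16.1 in B6-ob/ob. Of 3 hepatocyte markers 2 were measured, and 1 was called higher, Alb, by 3.4 (limma adjusted p = 0.000221). The other, Ttr, which is also in the alpha cell list, overlapped between strains and differed by 0.2 (limma adjusted p = 0.671). The part of these other cells in the lipid genes was not tested, and in bulk islets fewer cells of a type and less RNA per cell cannot be told apart.

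The direction of every difference follows the labels of the scanner files. In the authors' value table of the same arrays, all 6 columns lie nearest to an array of the other strain. All 26 lipid genes present there had the opposite sign, with a median of -0.46 over the genes. Which of the deposited files carries the right labels cannot be told apart here.

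In NZO islets the SREBP genes leaned upward, through a few large changes in fatty acid and glyceride genes and many small differences in cholesterol genes. Of the 35, limma called 12 higher in NZO (34.3%) and 0 lower, where it called 13.2% of all genes higher and 9% lower. At an unadjusted p under 0.05 the counts were 18 higher and 0 lower, against 3118 higher and 2658 lower of all 16417 genes. The median difference was 0.47, a 1.39-fold higher level in NZO, against -0.03 over all genes. A difference above 0 was found for 33 of 35 genes, against 47% of all genes. All NZO arrays lay above all B6-ob/ob arrays for 18 of the 35, where 20.7% of all genes did so. For 0 of the 35 did all NZO arrays lie below, where 20.4% of all genes did so, and the strains overlapped for the other 17. The count of 12 fell to 6 without NZO 10, to 7 without NZO 11 and to 5 without B6-ob/ob 5. Over all genes the count called higher fell too, from 2166 to 1509 without NZO 10 and to 1397 without NZO 11. With each array left out it lay between 1298 and 2218.

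**Figure D1:**
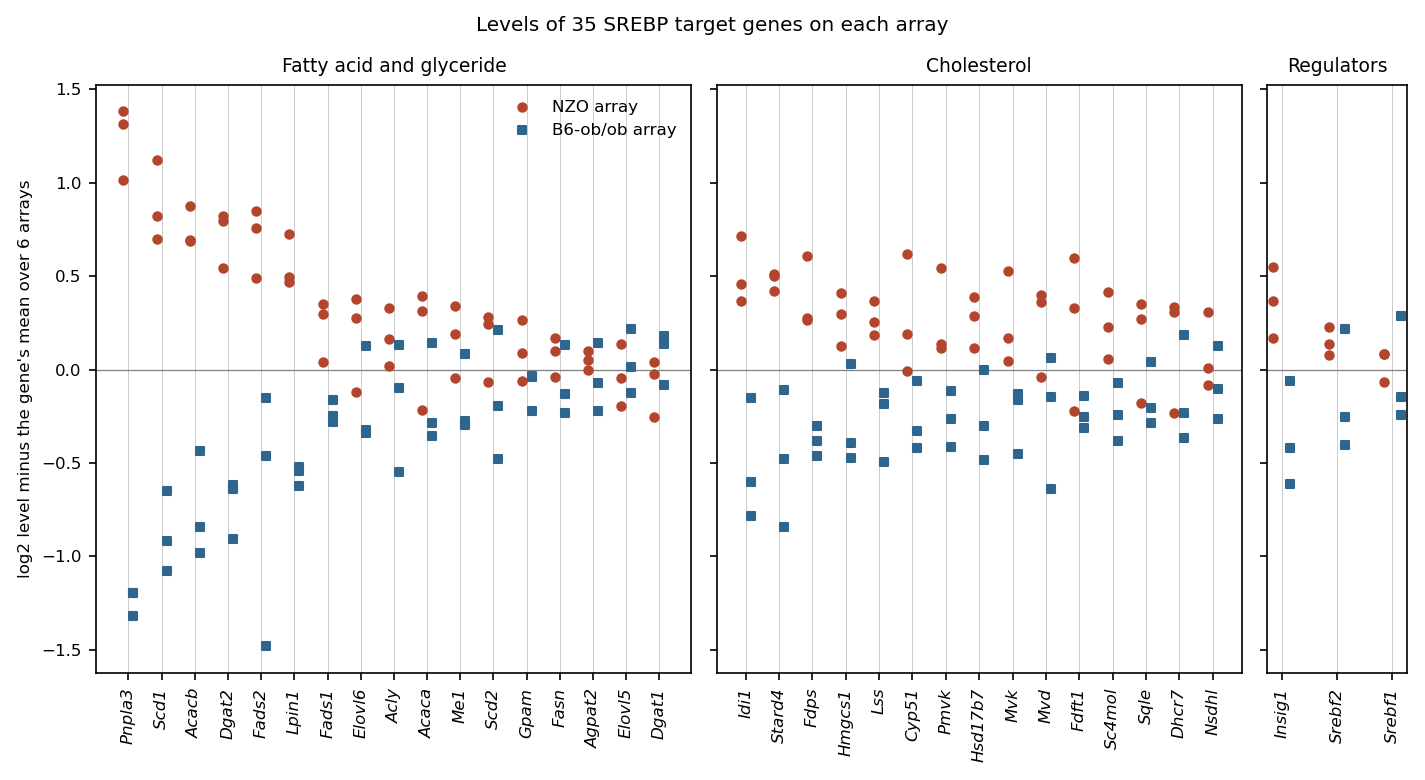
Log2 level of each of the 35 genes on each array, minus the gene's mean over all arrays, with NZO arrays beside B6-ob/ob arrays. Pnpla3, Scd1, Acacb, Dgat2 and Lpin1 show clearly separated strains, while Fasn and Srebf1 overlap.

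In the fatty acid and glyceride branch 7 of 17 genes were called higher (41.2%) and 0 lower, where 13.2% of all genes were called higher and 9% lower. The branch split: 6 of the called genes differed by at least 1, which is 2-fold, and Fads1 by 0.46, while the 10 genes not called lay between -0.16 and 0.35. Genes called higher by at least 1 make up 8.76% of all genes.

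Among the genes that supply carbon, malonyl-CoA and NADPH and join them into palmitate, 1 of 5 was called. Fasn, the fatty acid synthase itself, was at 4.98, 4.91 and 4.77 in NZO, against 4.94, 4.68 and 4.58 in B6-ob/ob. It overlapped between strains, with a difference of 0.15 (95% interval -0.19 to 0.49, limma adjusted p = 0.504). Acly, which makes cytosolic acetyl-CoA from citrate, differed by 0.34 (-0.14 to 0.83), and Me1, a source of NADPH, by 0.32 (-0.08 to 0.72). Neither was called, and these intervals include 0 and differences of up to 0.83 and 0.72.

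The called gene of this group was Acacb, the acetyl-CoA carboxylase whose malonyl-CoA restrains fatty acid entry into mitochondria. It was at -0.62, -0.8 and -0.81 in NZO, against -1.93, -2.48 and -2.34 in B6-ob/ob. The difference was 1.51 (SE 0.17), a 2.84-fold higher level in NZO, with a limma adjusted p of 0.00223. Its relative Acaca, the cytosolic carboxylase that feeds Fasn, was at -1.28, -1.36 and -1.89 in NZO, against -2.03, -1.96 and -1.53 in B6-ob/ob. The strains overlapped for Acaca, and its difference of 0.33 was not called (limma adjusted p = 0.348).

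Of the 6 elongation and desaturation genes 3 were called. Scd1, the stearoyl-CoA desaturase that makes monounsaturated fatty acids, was at -2.33, -2.75 and -2.63 in NZO, against -4.1, -4.37 and -4.53 in B6-ob/ob. All NZO arrays were well above all B6-ob/ob arrays, with a difference of 1.76 (SE 0.17), a 3.4-fold higher level in NZO (limma adjusted p = 0.0013). The probe was dim, with processed intensities of 51 to 86.1 in NZO and 19 to 21.9 in B6-ob/ob. After normexp background correction, which adds an offset of 50, the difference was 0.62 to 0.75 and still called. Scd2, a desaturase of the same reaction, was at 3.45, 3.1 and 3.41 in NZO, against 2.97, 2.69 and 3.38 in B6-ob/ob. The strains overlapped for Scd2, and its difference of 0.31 was not called (limma adjusted p = 0.349).

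Fads2 and Fads1, the delta-6 and delta-5 desaturases of polyunsaturated fatty acids, were both called. Fads2 was at -0.68, -0.59 and -0.95 in NZO, against -1.59, -1.9 and -2.92 in B6-ob/ob. Its difference of 1.4 (SE 0.35), 2.63-fold, had a limma adjusted p of 0.0344 and rested on widely spread B6-ob/ob arrays. It was 0.9 to 0.97 after normexp, and the call was lost without NZO 10, 11 or 12 or B6-ob/ob 5.

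Fads1 was at 0.94, 0.63 and 0.89 in NZO, against 0.31, 0.34 and 0.43 in B6-ob/ob, a difference of 0.46 (SE 0.13, limma adjusted p = 0.0485). Every NZO array was above every B6-ob/ob array, but the call was lost whichever array was left out. The elongases were not called: Elovl6, which extends palmitate, differed by 0.35 (-0.13 to 0.83), and Elovl5, which extends polyunsaturated fatty acids, by -0.07 (-0.43 to 0.29).

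Glyceride genes held the greatest difference of the 35. Pnpla3, a lipid droplet protein with lipase and transacylase activity, was at -0.69, -0.62 and -0.99 in NZO, against -3.32, -3.2 and -3.2 in B6-ob/ob. Both strains were tight, and the difference was 2.47 (SE 0.14), a 5.55-fold higher level in NZO (limma adjusted p = 0.000221). It was 1.46 to 1.55 after normexp, and was called there too. Its probe lies on chromosome 15 at 84019823 to 84019882 (mm9).

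Dgat2, which adds the last fatty acid to make triglyceride, was at 1.64, 1.61 and 1.36 in NZO, against 0.18, 0.2 and -0.09 in B6-ob/ob. The difference was 1.44 (SE 0.14), a 2.71-fold higher level in NZO (limma adjusted p = 0.00137). Dgat1, an unrelated enzyme of the same reaction, was at -0.06, -0.12 and -0.35 in NZO, against -0.18, 0.08 and 0.04 in B6-ob/ob, and its difference of -0.16 (-0.49 to 0.18) was not called. Lpin1, a phosphatidate phosphatase that makes diacylglycerol, was at 2.89, 2.63 and 2.66 in NZO, against 1.62, 1.64 and 1.54 in B6-ob/ob. The strains were again far apart for Lpin1, by 1.13 (SE 0.12, limma adjusted p = 0.00171). Gpam and Agpat2, which add the first and the second fatty acid to glycerol 3-phosphate, were not called, at 0.2 (-0.12 to 0.52) and 0.1 (-0.22 to 0.41).

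**Figure D2:**
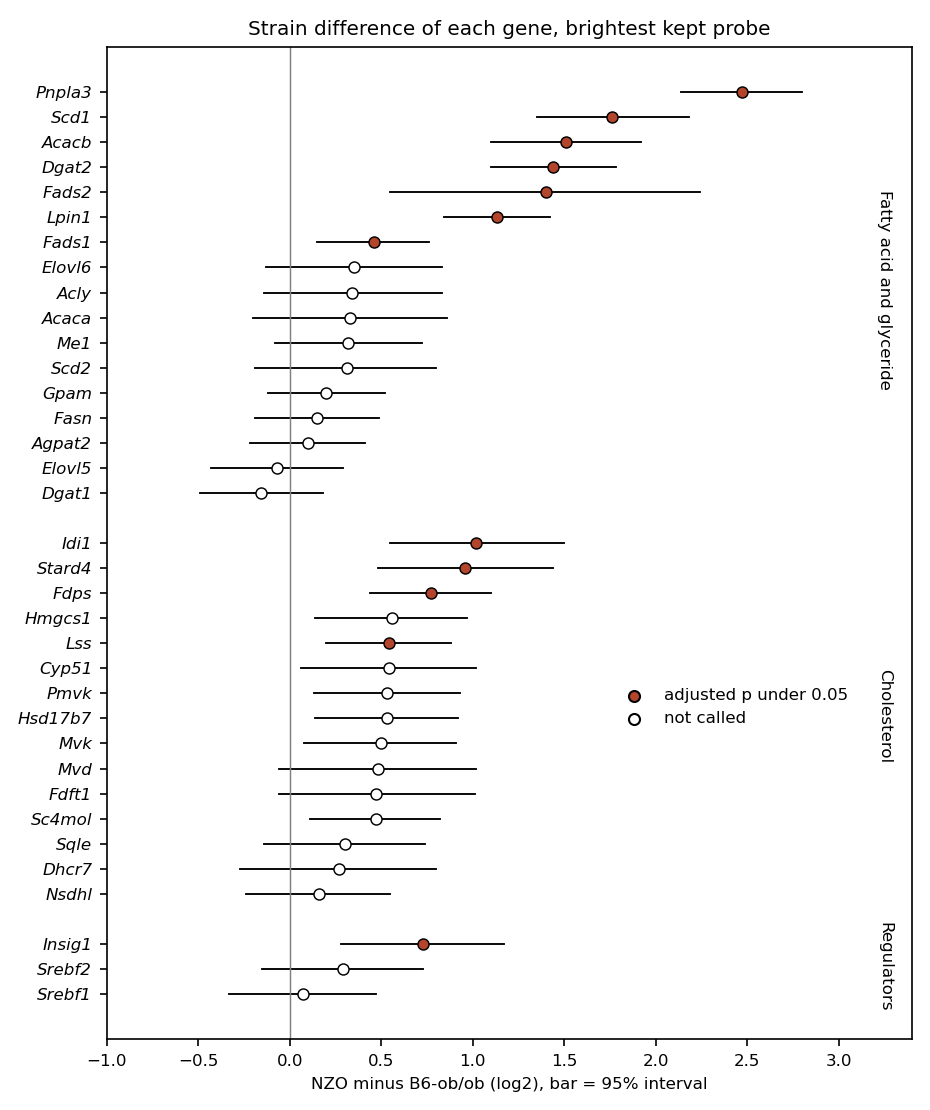
Difference of each of the 35 genes, NZO minus B6-ob/ob on the log2 scale, with its 95% interval. Pnpla3 stands highest at 2.47, and the cholesterol genes cluster near 0.5 while the fatty acid genes spread from -0.16 to 2.47.

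In 3 pairs of enzymes of the same reaction, chosen after their values were seen, the strains differed in the balance between the members. The log2 ratio of the first probe to the second, taken within each array, was higher in NZO by 1.18 for Acacb over Acaca, 1.46 for Scd1 over Scd2 and 1.6 for Dgat2 over Dgat1. Relative to its mean over the 6 arrays, the ratio of Dgat2 to Dgat1 was 0.79 to 0.81 in NZO and -1.05 to -0.55 in B6-ob/ob. For Scd1 over Scd2 it was 0.58 to 0.84 in NZO and -1.29 to -0.45 in B6-ob/ob, and for Acacb over Acaca 0.39 to 0.9 in NZO and -0.99 to -0.08 in B6-ob/ob. The strains did not overlap in any of the 3, and the exact two-sided permutation p was 0.1 for each, also after adjustment over the 3 pairs, which is the smallest that 3 against 3 allows. The pairs were picked for these differences, so the p-values support nothing beyond the description. After normexp the difference in ratio was 0.32 to 0.46 for Scd1 over Scd2, 0.81 to 0.83 for Acacb over Acaca and 1.45 to 1.48 for Dgat2 over Dgat1.

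In the cholesterol branch all 15 genes had a difference above 0 at their brightest probe, between 0.16 and 1.02, with a median of 0.53, a 1.44-fold higher level in NZO. Of the 32 kept probes of these genes 27 were above 0, against 10821 of all 24628 kept probes. With the mean of a gene's kept probes 14 of the 15 genes were above 0, all but Hmgcs1. Only 4 of the genes were called higher (26.7%) and 0 lower, where 13.2% of all genes were called higher and 9% lower. The middle of the branch was narrow, with quartiles at 0.47 and 0.55, against 0.2 and 1.4 in the fatty acid branch and -0.29 and 0.3 over all genes. The called count was 1 without NZO 10, 2 without NZO 11 and 0 without B6-ob/ob 5. All NZO arrays lay above all B6-ob/ob arrays for 10 of the 15 genes, where 20.7% of all genes did so. Of the 11 genes not called, 6 had no overlap between strains, with limma adjusted p between 0.0645 and 0.108.

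From the start of the mevalonate pathway to squalene, 2 of 7 genes were called. Idi1, the isomerase that makes dimethylallyl diphosphate, was at 2.41, 2.06 and 2.15 in NZO, against 0.91, 1.09 and 1.54 in B6-ob/ob. The strains were apart by 1.02 (SE 0.2), a 2.03-fold higher level in NZO (limma adjusted p = 0.0141), and the call was lost without NZO 10 or B6-ob/ob 5. Both Idi1 probes lie on chromosome 2 in the files' positions (mm9, 53553575 to 53553634 and 53555566 to 53555625), while the RefSeq table places the gene on chromosome 13, and whether they measure Idi1 was not tested.

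Fdps, the farnesyl diphosphate synthase, was at 2.87, 2.53 and 2.54 in NZO, against 1.96, 1.8 and 1.88 in B6-ob/ob. It differed by 0.77 (SE 0.14), 1.7-fold, with all NZO arrays above (limma adjusted p = 0.0108), and lost the call without B6-ob/ob 5. Hmgcs1, the synthase that makes HMG-CoA, was at 3.72, 3.61 and 3.44 in NZO, against 2.84, 2.92 and 3.34 in B6-ob/ob. Its difference of 0.56 (95% interval 0.14 to 0.97) was not called over all genes (limma adjusted p = 0.0652), although the strains did not overlap. Another Hmgcs1 probe, made from a clone sequence and well above background on 1 NZO and 3 B6-ob/ob arrays, was at -3.05 (limma adjusted p = 0.0989), and with the mean of the kept probes the gene turned to -0.67. Pmvk, Mvk and Mvd, which phosphorylate and decarboxylate mevalonate, had differences of 0.53, 0.5 and 0.48, and Fdft1, which makes squalene, 0.47. None of these 4 was called, and NZO overlapped B6-ob/ob for Mvd and Fdft1. A second Mvk probe was at -0.21 with overlapping strains, and with the mean of the kept probes Mvk was at 0.14.

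Among the 7 genes from squalene epoxidation to cholesterol, only Lss, the cyclase that closes the sterol rings, was called. Lss was at 0.85, 0.74 and 0.67 in NZO, against -0.01, 0.3 and 0.36 in B6-ob/ob, a difference of 0.54 (SE 0.14, limma adjusted p = 0.0405). That call was kept in 1 of the 6 fits that left out an array, the fit without B6-ob/ob 6. Sc4mol, the C-4 methyl sterol oxidase, was at 5.11, 4.92 and 4.75 in NZO, against 4.31, 4.45 and 4.62 in B6-ob/ob. Its difference was 0.47 (95% interval 0.11 to 0.82, limma adjusted p = 0.0697). Of the other demethylation genes, Cyp51 and Hsd17b7 differed by 0.54 and 0.53 without overlap and without a call. Nsdhl, also a demethylation gene, differed by 0.16, Sqle, the epoxidase, by 0.3, and Dhcr7, which acts last in the pathway, by 0.27. The strains overlapped for these 3.

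Stard4, which carries cholesterol between membranes, was the other called gene of the branch. It was at 0.89, 0.88 and 0.8 in NZO, against -0.46, -0.1 and 0.27 in B6-ob/ob. NZO was tight and B6-ob/ob spread, and the difference was 0.96 (SE 0.2), a 1.94-fold higher level in NZO (limma adjusted p = 0.018). The call was lost without NZO 10, NZO 11 or B6-ob/ob 5.

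**Figure D3:**
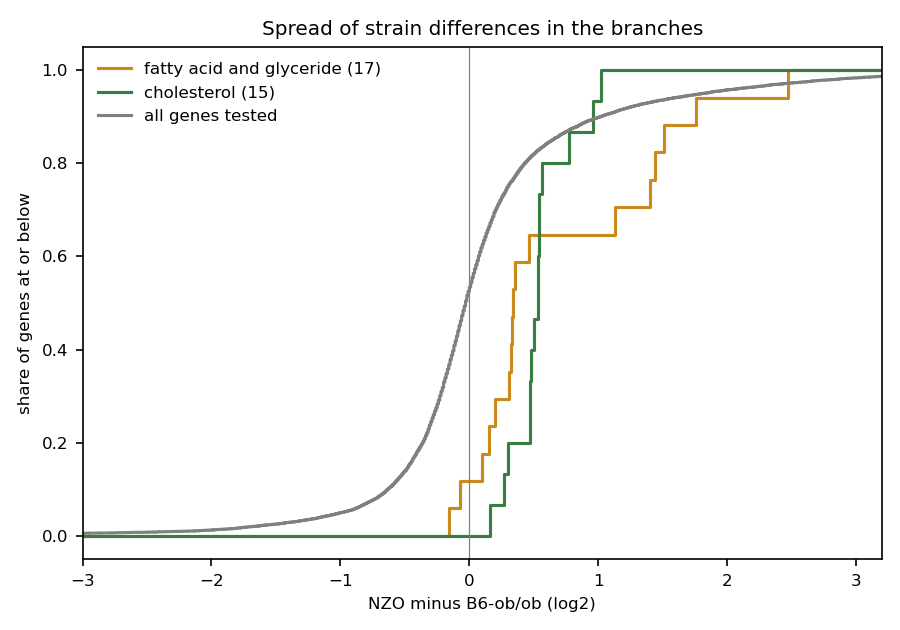
Share of genes at or below each difference, NZO minus B6-ob/ob on the log2 scale. Curves are for the 17 fatty acid and glyceride genes, the 15 cholesterol genes and all genes tested. The cholesterol genes lie between 0.16 and 1.02, while the fatty acid genes spread from -0.16 to 2.47.

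The median difference was 0.34 in the fatty acid branch and 0.53 in the cholesterol branch. The fatty acid median minus the cholesterol median was -0.18, between -0.24 and 0.02 with each array left out, and the difference was not tested. Taken per array as deviations from each gene's mean, the median of the fatty acid branch was 0.33, 0.31 and 0.14 in NZO 10, 11 and 12, against -0.28, -0.28 and -0.22 in B6-ob/ob 4, 5 and 6. The median of the cholesterol branch was 0.4, 0.3 and 0.06 in NZO 10, 11 and 12, against -0.16, -0.27 and -0.25 in B6-ob/ob 4, 5 and 6. Which branch had the higher median changed from array to array within both strains. What set the branches apart was the range: 6 of 17 fatty acid genes were called by at least 1, and 1 of 15 cholesterol genes (Idi1) was. These counts depend on the background correction. After normexp Scd1 (0.62 to 0.75), Fads2 (0.9 to 0.97) and Idi1 (0.96 to 0.98) were under 1, and Acacb was at 1.04 to 1.09.

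Of the 3 regulators 1 was called higher, where 13.2% of all genes were. Srebf1, which encodes SREBP-1, was at 4.76, 4.61 and 4.76 in NZO, against 4.43, 4.53 and 4.96 in B6-ob/ob. Its highest and its lowest arrays were both B6-ob/ob, and the difference was 0.07 (95% interval -0.33 to 0.47, limma adjusted p = 0.806). Which form of SREBP-1 the probe reads is not given in the sources used here, and transcript levels do not show how much protein was cut and active. Srebf2 was at 3.81, 3.72 and 3.66 in NZO, against 3.18, 3.33 and 3.8 in B6-ob/ob, overlapping through B6-ob/ob 6, and its difference of 0.29 (95% interval -0.15 to 0.73) was not called.

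Insig1, both a target of SREBPs and the protein that holds them back, was called higher. It was at 0.49, 0.11 and 0.31 in NZO, against -0.67, -0.48 and -0.12 in B6-ob/ob. All NZO arrays were above, by 0.73 on average (SE 0.18), a 1.66-fold higher level (limma adjusted p = 0.0362). The call was kept in 1 of the 6 fits that left out an array, the fit without B6-ob/ob 6. A second Insig1 probe differed by 0.26 with overlapping strains (limma adjusted p = 0.277). With the mean of the kept probes Insig1 was at 0.49 and not called (limma adjusted p = 0.078).

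Several genes were read by more than 1 probe, and the probes did not always agree. Of the 22 genes with more than 1 kept probe, 7 had probes of both signs and 3 had every kept probe called higher in the fit over all 24628 probes. That fit called 20 of the 68 probes higher and 2 lower, where it called 11.5% of all probes higher and 10.3% lower. The 3 were Dgat2 (1.44, 1.58 and 1.55), Stard4 (0.96, 0.65 and 0.86) and Idi1 (1.02 and 0.91). Hsd17b7, not called by its brightest probe, had a second probe at 1.08 (limma adjusted p = 0.00915), and Acaca a second at 0.72 (limma adjusted p = 0.0218).

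Lpin1 had 4 probes on chromosome 12 (mm9). The brightest, at 16543315 to 16543373, and the overlapping pair at 16544189 to 16544248 and 16544209 to 16544268 gave differences of 1.13, 1.28 and 1.38, all called. The probe at 16544129 to 16544188, directly beside that pair, was at 1.43, 1.12 and 1.19 in NZO, against 1.17, 1.16 and 1.32 in B6-ob/ob, a difference of 0.03 (limma adjusted p = 0.908).

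Me1 and Acly each had a probe that was called lower in NZO. The second Me1 probe, on chromosome 9 at 86480030 to 86480089 (mm9), was at -2.42, -2.77 and -2.33 in NZO, against -0.7, -1.09 and -1.2 in B6-ob/ob. Its difference of -1.51 (limma adjusted p = 0.00308) was opposite in sign to that of the other Me1 probe. With the mean of a gene's kept probes in place of the brightest, Me1 was called lower at -0.59 (limma adjusted p = 0.0334). The second Acly probe, made from a clone sequence, was well above background on 1 NZO array and all 3 B6-ob/ob arrays, and differed by -1.86 (limma adjusted p = 0.0463). With the mean of the kept probes Acly turned to -0.76, without a call. For Fdps and Lss, the probes other than the brightest were near 0 or below it, at -0.18 for Fdps and at -0.17 and -0.18 for Lss, and with the mean of the kept probes neither gene was called (0.3 and 0.06).

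**Figure D4:**
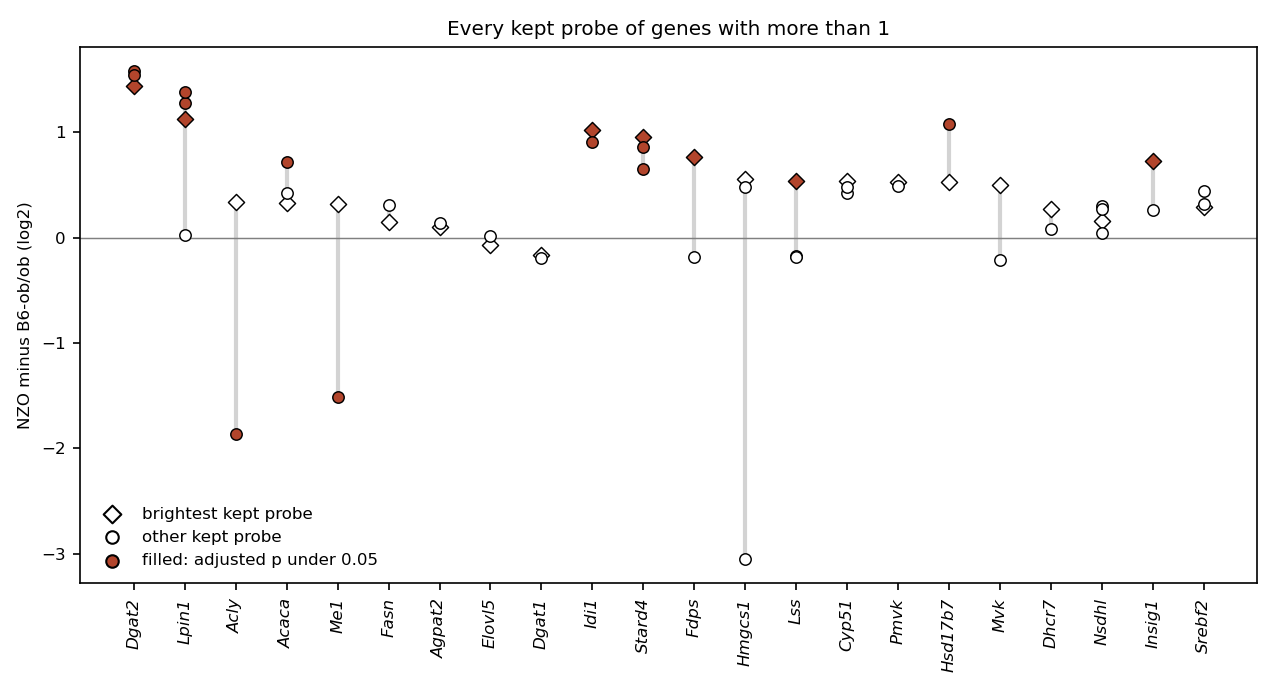
Difference of every kept probe of the 22 genes with more than 1 kept probe, NZO minus B6-ob/ob on the log2 scale. The brightest probe of each gene is marked. Probes of Dgat2 lie together between 1.44 and 1.58, while those of Lpin1, Me1, Acly and Hmgcs1 spread widely.

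Other genes of the same pathways, from lists of 45 of which 42 were measured, were read in the same fit. Limma called 8 of the 42 higher and 3 lower, where it called 13.2% of all genes higher and 9% lower. The higher calls were 19% of the list, and its median difference was 0.14, against 0.47 for the 35 genes and -0.03 for all genes. None of 8 SREBP partners and processing genes was called. At an unadjusted p under 0.05 their counts were 1 higher and 1 lower, against 3118 higher and 2658 lower of all 16417 genes. Scap differed by -0.05, Insig2 by -0.07, Mbtps1 by 0.05 and Mbtps2 by 0.01.

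Of 21 further fatty acid and glyceride genes 4 were called higher (19%) and 1 lower. Mogat2, a monoacylglycerol acyltransferase, was at -3.57, -3.55 and -4.13 in NZO, against -4.75, -7.12 and -6.09 in B6-ob/ob, where 1 of 3 arrays was well above background. Its difference was 2.24 (SE 0.58, limma adjusted p = 0.0385). Fads3, a relative of the delta-5 and delta-6 desaturases, was higher by 1.91 (SE 0.27, limma adjusted p = 0.00462). Elovl7, an elongase of long fatty acids, fell by 1.78 (SE 0.23, limma adjusted p = 0.00333), at -1.21, -0.87 and -1.58 in NZO, against 0.87, 0.36 and 0.45 in B6-ob/ob.

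Of 13 further cholesterol genes 4 were called higher (30.8%, against 13.2% of all genes) and 2 lower. Aacs, which makes acetoacetyl-CoA for lipid synthesis, was at 5.37, 5.1 and 4.4 in NZO, against 3.75, 3.42 and 3.56 in B6-ob/ob, a difference of 1.38 (SE 0.26, limma adjusted p = 0.0136). Soat1, which esterifies cholesterol for storage, was at 1.19, 1.2 and 1.21 in NZO, against 1.75, 1.81 and 1.75 in B6-ob/ob. It fell by 0.57 (limma adjusted p = 0.00948), and Ggps1, the geranylgeranyl diphosphate synthase, fell by 0.42 (limma adjusted p = 0.0393).

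The arrays lay on 3 slides. NZO 12 was alone on slide 1, NZO 10 shared slide 2 with B6-ob/ob 4, and NZO 11 shared slide 3 with B6-ob/ob 5 and 6. Within slide 2, 34 of the 35 genes were higher in NZO, with a median difference of 0.69, and within slide 3, 32 of 35 were higher, with a median of 0.48. The share over all genes was not computed within slides, so these counts have no background beside them. With slide as a fixed block limma called 7 of the 35 higher, where it called 1513 of all 16417 genes higher and 813 lower. Stard4 (limma adjusted p = 0.0529), Idi1 (0.0704), Lss (0.0962), Fads2 (0.0987), Insig1 (0.138) and Fads1 (0.187) lost their calls there, and Fdft1 gained one (0.048). Acacb, Scd1, Dgat2, Pnpla3 and Lpin1 kept their call in all 18 alternative fits of the scanner files.

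**Figure D5:**
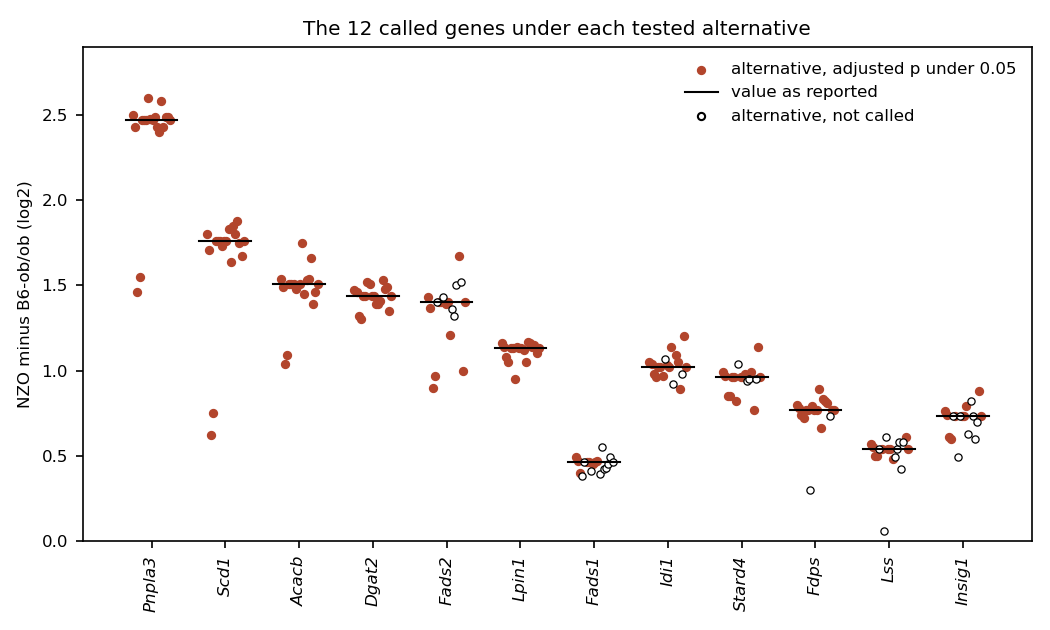
Difference of each of the 12 called genes, NZO minus B6-ob/ob on the log2 scale, under the alternative fits of the scanner files. Acacb, Scd1, Dgat2, Pnpla3 and Lpin1 were called in all 18, and the values of Scd1 and Pnpla3 are lowest after normexp.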

How the data were processed

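Islet RNA of 3 NZO and 3 B6-ob/ob samples was labelled with Cy3 and read on 1-colour Agilent arrays, 1 per sample. The deposited files hold processed intensities (linear) from Feature Extraction, version 10.5.1.1 in the headers and 9.1 in the submitters' processing notes. Per the file headers they were background-subtracted and not normalised between arrays. The authors' deposited value table holds linear intensities at 33150 probes. Its columns were not centred, with medians of 21.3, 21.4 and 21.4 in those labelled NZO and 22.1, 21.4 and 22.4 in those labelled B6-ob/ob, and its normalisation is not given in the sources used here. It served only as an alternative, since its direction stays unknown. Probe positions are on mm9, per the file headers.

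Control spots and the 61 to 76 flagged spots per array were left out. The log2 of the processed intensity was lowered by each array's 75th percentile. Probes called well above background by the scanner software on 3 or more of the 6 arrays were kept (24628 of 41174), and a gene was its brightest kept probe. The strains were set against each other in limma 3.58.1 (lmFit, eBayes; R 4.3.3), with two-sided p-values adjusted by Benjamini-Hochberg over all genes and called under 0.05, and the functions were tested on simulated data. No set test was run, so lists are described by counts and medians. The genes, the pathway lists and the marker lists (beta cell, alpha cell, acinar, ductal, adipocyte, stromal, macrophage, endothelial, hepatocyte) were chosen with earlier results of these data known. The rule names every gene of the set, and of the other pathway genes up to 3 called ones in each direction by size, and up to 3 markers per list. Alb, Ttr, Cidec, Fabp4, Pparg, Lipe, Adipoq, Retn, Adrb3, Cfd, Cftr, Muc1, Pdgfra, Ptf1a and Nkx6-1 were named with their values seen.

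Alternatives covered normexp with an offset of 50, quantile scaling, the percentile over detected probes, the filter on dim probes, the mean of a gene's probes, every probe tested, slide as a block, within slide, the prior variance, array weights, the value table and each array left out. The number of arrays limits the precision.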

Additional observations from a re-analysis of the deposited data

How the results depend on the processing

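No paired analysis was possible because the groups share no replicate numbers (10, 11 and 12 against 4, 5 and 6), and slide was the block instead. Under 4 other scalings the median of all genes lay between -0.04 and 0.02, and 33 of 35 genes stayed above 0 under each. Dim probes and 3 arrays per strain limit what can be called, and Fads1, Fads2, Lss, Insig1, Stard4, Idi1 and Fdps each lost the call in some fits.

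With each array left out, between 5 and 13 of the 35 genes were called higher and 0 lower, with 5 to 6 in the fatty acid branch, 0 to 6 in the cholesterol branch and 0 to 1 among the regulators. Over all genes 1298 to 2218 were called higher and 635 to 1561 lower. The median difference ran between 0.36 and 0.58 for the 35 genes, 0.27 and 0.49 for the fatty acid branch and 0.4 and 0.6 for the cholesterol branch, and the fatty acid minus the cholesterol median between -0.24 and 0.02. With no filter on dim probes 0 regulators were called. With the mean of a gene's probes 1 gene (Me1, -0.59) was called lower and 0 regulators higher, the median was 0.35, and 30 of the 35 were above 0. With slide as a fixed block 7 of the 35, 2 cholesterol genes and 0 regulators were called higher, and the fatty acid median was 0.46. Of all genes, 1513 were called higher and 813 lower with that block. Within slide 2 the medians were 0.69 for the 35 genes, 0.63 for the fatty acid and 0.75 for the cholesterol branch.

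Array weights gave B6-ob/ob 5 a weight of 29.5, against 0.282 to 1.13 for the others, and their estimation stopped before it converged. That fit called 30 of the 35 higher, 13 in the fatty acid branch, 15 in the cholesterol branch and 2 regulators, with a fatty acid median of 0.55 and a difference between branch medians of -0.01. It called 4356 of all genes higher and 4373 lower. In the value table, read by its labels, 0 of the lipid genes were called higher (0 fatty acid, 0 cholesterol, 0 regulators) and 11 lower by limma. The medians there were -0.46 over the genes, -0.37 for the fatty acid and -0.49 for the cholesterol branch, and 0.11 between branches. Of the 13596 genes read there 1359 were called higher. The number of all genes called lower there is not given here, so the 11 lower calls have no background beside them. The cause was not tested for any of these. Over single genes in the tested fits of the scanner files, 550 values kept their direction and their side of the threshold, 32 became called, 41 lost the call and 7 changed sign. With the mean of a gene's probes Me1 (-0.59), Acly (-0.76) and Hmgcs1 (-0.67) changed sign. Elovl5 did so at 0.05 with array weights, 0.01 without NZO 11 and 0.02 without B6-ob/ob 6, and Srebf1 at -0.03 without B6-ob/ob 4. With each array left out Elovl5 ran between -0.16 and 0.02, and Srebf1 between -0.03 and 0.23. Within slides, where nothing was tested, Dgat1 (0.13, slide 2) and Srebf1 (-0.13, slide 3) also changed sign. All 26 genes of the value table had the opposite sign.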
